A study of Rattus norvegicus with 18 samples.

Results

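The acute effect of thyroid-stimulating hormone (TSH) on transcript levels was compared between a pair of established rat thyroid cell lines, FRTL5 and FRT/TSHR. For each probe set the change from basal to 30 min of TSH was taken within each line, and the FRTL5 change was subtracted from the FRT/TSHR change. This line difference is negative where TSH raised a transcript less in FRT/TSHR than in FRTL5. It rests on 12 of the 18 arrays in the series, 3 in each of 4 groups, chosen by line and time from the sample titles. The other 6 arrays, taken after 17 h of TSH, served to estimate the spread between replicates.

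FRTL5 is labelled a differentiated thyrocyte line, and FRT/TSHR a de-differentiated thyroid line that carries the TSH receptor according to its name. FRTL5 cells were held for 5 days in the TSH-free 5H medium and then given bovine TSH at 0.1 U/L, per the labels. FRT/TSHR cells grew in Coon's modification of F12 medium and were given 1 U/L. Both lines were kept without serum for 12 h before TSH, and both basal groups had no TSH. Line, dose and medium changed together, so their parts in any difference below cannot be told apart. No group was left untreated for 30 min, so handling and time cannot be told apart from TSH. The labels do not say whether the FRT/TSHR cells were 1 clone, nor which species or promoter the introduced receptor came from.

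TSH binds a G-protein-coupled receptor on thyrocytes that acts mainly through Gs, adenylyl cyclase and cAMP. Protein kinase A, activated by cAMP, phosphorylates the factor CREB, which binds the cAMP response element of its target promoters. Within minutes, CREB, serum response factor and the MAP kinase pathway switch on immediate early genes, whose transcription needs no new protein synthesis. Many of these genes encode transcription factors of the NR4A, FOS, JUN and EGR families, and others encode phosphatases that shut the signal off. In FRTL5 cells TSH is also the hormone that supports differentiated function and growth.

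Each value is a log2 expression level from an Affymetrix array, and array medians lay between 5.47 and 5.58. The mean level of 6 thyrocyte markers was 7.90 to 8.71 on the FRTL5 arrays and 6.22 to 6.41 on the FRT/TSHR arrays. Epithelial markers (Epcam, Krt8 and Krt18) were low in FRTL5 at 4.20 to 4.46 and high in FRT/TSHR at 9.61 to 9.91. Of the 4 Tshr probe sets, 3 were lower in basal FRT/TSHR than in basal FRTL5, by up to 3.96. The representative one was at 6.60 against 6.56, a difference of 0.04 (adjusted p = 0.912, limma). With the species and extent of the introduced receptor sequence unknown, these probe sets do not check the label. The FRTL5 arrays numbered 1 stood apart in RNA signal along the beta-actin transcript, with a 3' minus 5' difference of 1.13 to 1.22 against -0.14 to 0.28 on the other 10 arrays. Where leaving out the stimulated one changed the call of a gene described below, its value without that array is given too.

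The line difference passed for the NR4A orphan nuclear receptors Nr4a3 and Nr4a1, both of which rose in FRTL5 and overlapped between basal and stimulated arrays in FRT/TSHR. Of 8740 probe sets, 3 passed at an adjusted p under 0.05 (0.0343%), all with the smaller effect in FRT/TSHR: 1 for Nr4a3 and 2 for Nr4a1. None passed in the other direction. At an unadjusted p under 0.05 there were 227 probe sets (2.6%), of which 107 were lower and 120 higher. The titles number the replicates but do not say that arrays of the same number were paired. With line and replicate number as a block in the model 8 probe sets passed, all 8 of them with the smaller effect in FRT/TSHR. The added ones were for Dusp1 (2 probe sets), Ier3, Nr4a2 and Mat2a, the last named after its value was seen.

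The largest values of the line difference were negative. It was below -1 for 38 probe sets and above 1 for 0, with a median over all probe sets of 0.02. After a second quantile normalization the same counts were 36 and 1. Past 0.5 in size, 228 probe sets were negative and 67 positive, or 196 and 89 after the second normalization. The 38 probe sets carried 21 gene symbols, and 6 had no single symbol. The FRTL5 change was above 1 in 33 of them, while the FRT/TSHR change was above 0 in 30 and below -0.5 in 5. The 5 were probe sets for Anp32a, Atp1b1, Me1 and Cxcl10, named after their values were seen, and 1 without a gene name, and none of them passed. In bulk RNA, fewer responding cells and a smaller response per cell cannot be told apart.

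**Figure D1:**
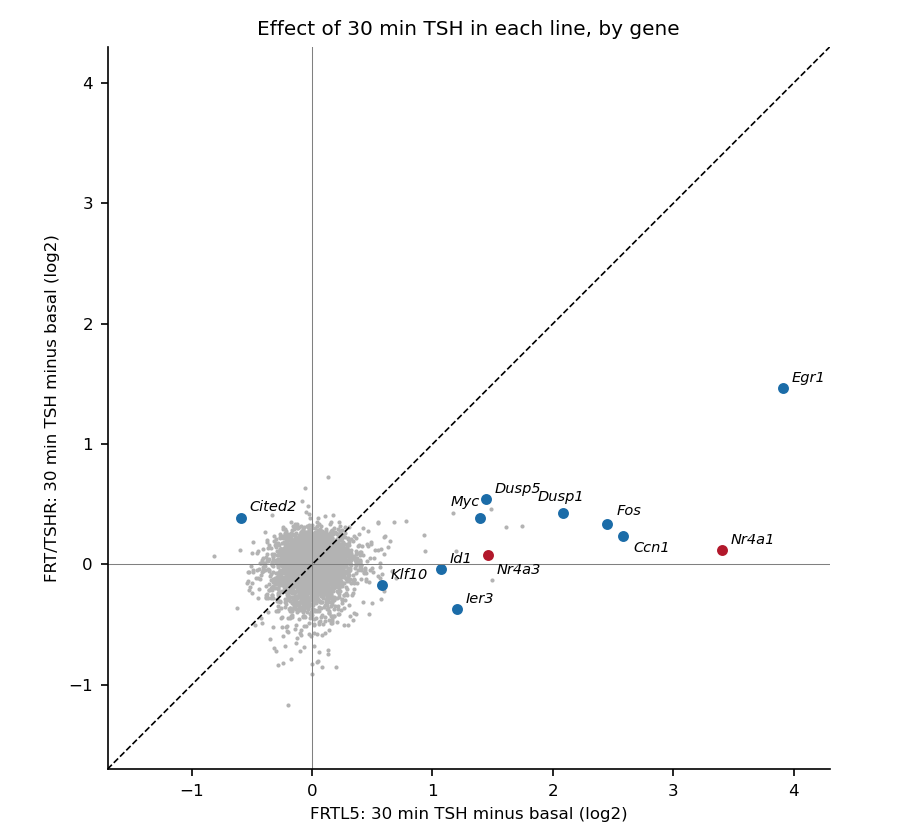
Change from basal to 30 min of TSH in FRTL5 (x axis, log2) and in FRT/TSHR (y axis, log2) for 4736 genes, each shown by its representative probe set; red points passed the test of the line difference, blue points are other labelled genes, and the dashed line marks equal change. Labelled genes other than Cited2 lie to the right and far below the dashed line, with Nr4a1 at 3.41 against 0.12 and Egr1 at 3.91 against 1.47.

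The promoters of the listed early genes were read because cAMP and MAP kinase signalling reach such genes through known elements. The lists hold genes that moved with TSH and genes that did not. The core of the cAMP response element was searched as TGACG or CGTCA, which are the same element on opposite strands. The CArG box of serum response factor was searched as CCWWWWWWGG, where W is A or T. Promoters were the 250 bases before each annotated start in the RefSeq annotation of the rat build GRCr8. Of the 71 early genes measured, 56 had an entry, with 71 promoters in all. The core was present in 32 of the 71 (45.1%), against 18.2% of all 33469 promoters. At least 2 matches were present in 22.5% against 3.98%, and a CArG box in 7.04% against 1.5%. Among genes with a line difference below -1, 15 of 21 had an entry, and 9 of those 15 promoters (60.0%) held the core. The early lists were made of families known to respond to such signals, among them a list of CREB-type cAMP targets. The genes below -1 were picked by the line difference and include members of these lists. The higher shares could come from how the genes were chosen, so they are a description and not a test.

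A set of 4 promoters is shown for genes that moved in FRTL5, because they differ in these elements. Nr4a3, Fos, Ier3, Klf10 and Myc had no promoter entry, so theirs could not be read. Capitals mark TGACG or CGTCA in Nr4a1 and Dusp1, and in Egr1 both that core and the CArG boxes. All are on the + strand, 5′ to 3′, at chr7:134259888-134260137 for Nr4a1, chr10:17184603-17184852 for Dusp1, chr18:26736828-26737077 for Egr1 and chr3:161671314-161671563 for Id1.
Nr4a1: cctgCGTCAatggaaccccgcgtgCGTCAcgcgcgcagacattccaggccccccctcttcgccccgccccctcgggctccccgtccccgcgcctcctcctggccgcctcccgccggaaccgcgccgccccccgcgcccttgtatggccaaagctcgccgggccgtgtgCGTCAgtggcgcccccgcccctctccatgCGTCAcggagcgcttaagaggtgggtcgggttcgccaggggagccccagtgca
Dusp1: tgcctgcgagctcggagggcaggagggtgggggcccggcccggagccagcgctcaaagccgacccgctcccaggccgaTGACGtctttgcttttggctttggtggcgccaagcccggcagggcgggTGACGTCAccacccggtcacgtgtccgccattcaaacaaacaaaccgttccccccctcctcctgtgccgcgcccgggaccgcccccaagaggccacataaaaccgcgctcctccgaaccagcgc
Egr1: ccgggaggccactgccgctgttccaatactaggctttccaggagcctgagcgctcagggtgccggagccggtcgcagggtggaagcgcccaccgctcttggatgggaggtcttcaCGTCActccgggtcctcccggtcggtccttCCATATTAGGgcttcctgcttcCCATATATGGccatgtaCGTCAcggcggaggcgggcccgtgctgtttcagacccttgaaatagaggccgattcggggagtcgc
Id1: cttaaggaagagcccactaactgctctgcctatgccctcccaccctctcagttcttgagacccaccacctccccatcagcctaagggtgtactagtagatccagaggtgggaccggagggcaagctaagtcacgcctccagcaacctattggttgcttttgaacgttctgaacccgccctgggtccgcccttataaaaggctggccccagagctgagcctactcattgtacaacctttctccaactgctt

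Nr4a1 held 4 matches to the core, the first bases of which lie 246, 226, 82 and 53 bases before the start. Dusp1 held 3, of which the last 2, at 124 and 121, overlap in the palindrome TGACGTCA. Egr1 held 2 core matches at 135 and 66 and 2 CArG boxes at 105 and 83. Id1 held none of either in this window, and yet it rose in FRTL5. Genes with and without the elements were therefore among those with large line differences, and a match here is a description of letters and not a measured site.

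Nr4a3 (NOR1), an orphan nuclear receptor induced by cAMP in many endocrine cells, had the smallest p of all probe sets. Its level was 5.93, 6.11 and 6.08 on the basal FRTL5 arrays and 7.42, 7.46 and 7.64 after TSH. In FRT/TSHR it was 6.07, 6.03 and 5.99 before and 6.18, 5.93 and 6.22 after TSH. All 3 stimulated FRTL5 arrays stood above the other 9 arrays, and basal and stimulated FRT/TSHR arrays overlapped. The lines started from nearly the same level, with group means of 6.04 ± 0.10 in FRTL5 and 6.03 ± 0.04 in FRT/TSHR (SD, n = 3 each). TSH raised Nr4a3 by 1.46 ± 0.10 (SE) in FRTL5, which is 2.76-fold, and the FRT/TSHR change was 0.08 with a 95% interval of -0.13 to 0.29. The line difference was -1.38 ± 0.14 (adjusted p = 0.000298, limma). It passed in all 22 alternative settings tried, among them leaving out any 1 of the 12 arrays. A second Nr4a3 probe set gave -0.99 ± 0.31 and another -0.18 ± 0.18, and neither passed. Those 2 had basal FRTL5 levels of 3.34 to 4.39, below that of the representative one.

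Nr4a1 (NUR77), the family's founding member and itself a target of CREB, had the larger change. It was at 6.35, 6.0 and 5.47 in basal FRTL5 and at 8.35, 9.73 and 9.96 after TSH. In FRT/TSHR it was at 5.10, 5.32 and 5.09 before TSH and at 5.34, 5.56 and 4.97 after it. The 3 stimulated FRTL5 arrays lay well above all others, and the array numbered 1 was the lowest of them. The rise was 10.6-fold in FRTL5 (3.41 ± 0.33) and 1.09-fold in FRT/TSHR (0.12, 95% interval -0.58 to 0.82). The line difference was -3.29 ± 0.46 (adjusted p = 0.0128, limma), and the other Nr4a1 probe set gave -3.19 ± 0.51 (adjusted p = 0.0335). The basal difference of -0.77 between lines did not pass (adjusted p = 0.107, limma). The call of the representative probe set was lost when basal array 3 or 30 min array 2 of FRTL5 was left out. It was also lost without basal array 2 or 30 min array 3 of FRT/TSHR (adjusted p 0.0544 to 0.0666 over these, limma). A fit of the 12 arrays alone lost it too (0.0823). Its values lay between -3.78 and -2.98 over the arrays left out in turn. The other probe set was less stable. With a single array left out, it was called only without basal array 1 or 30 min array 1 of FRTL5. It was not called with a block shared by the lines or in the fit of the 12 arrays.

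Nr4a2 (NURR1), the remaining member, gave different answers by probe set. The representative probe set was at 5.11, 4.68 and 5.16 before and 5.46, 5.64 and 5.49 after TSH in FRTL5, and at 4.67, 4.54 and 4.47 before and 4.93, 4.79 and 4.99 after TSH in FRT/TSHR. Both lines had higher values after TSH, and the line difference was -0.21 ± 0.19. The other probe set was at 3.90, 3.72 and 3.84 and then 5.40, 4.91 and 4.80 in FRTL5, against 3.70, 4.25 and 3.69 and then 3.71, 4.06 and 4.09 in FRT/TSHR. By that one FRTL5 rose by 1.21 and FRT/TSHR changed by 0.07, a line difference of -1.14 ± 0.25 that did not pass (adjusted p = 0.392, limma) and passed with the replicate number as a block (adjusted p = 0.0282). At 17 h the line differences against the same basal arrays were -0.06 ± 0.14 for Nr4a3 and -0.18 ± 0.46 for Nr4a1, neither of which passed.

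**Figure D2:**
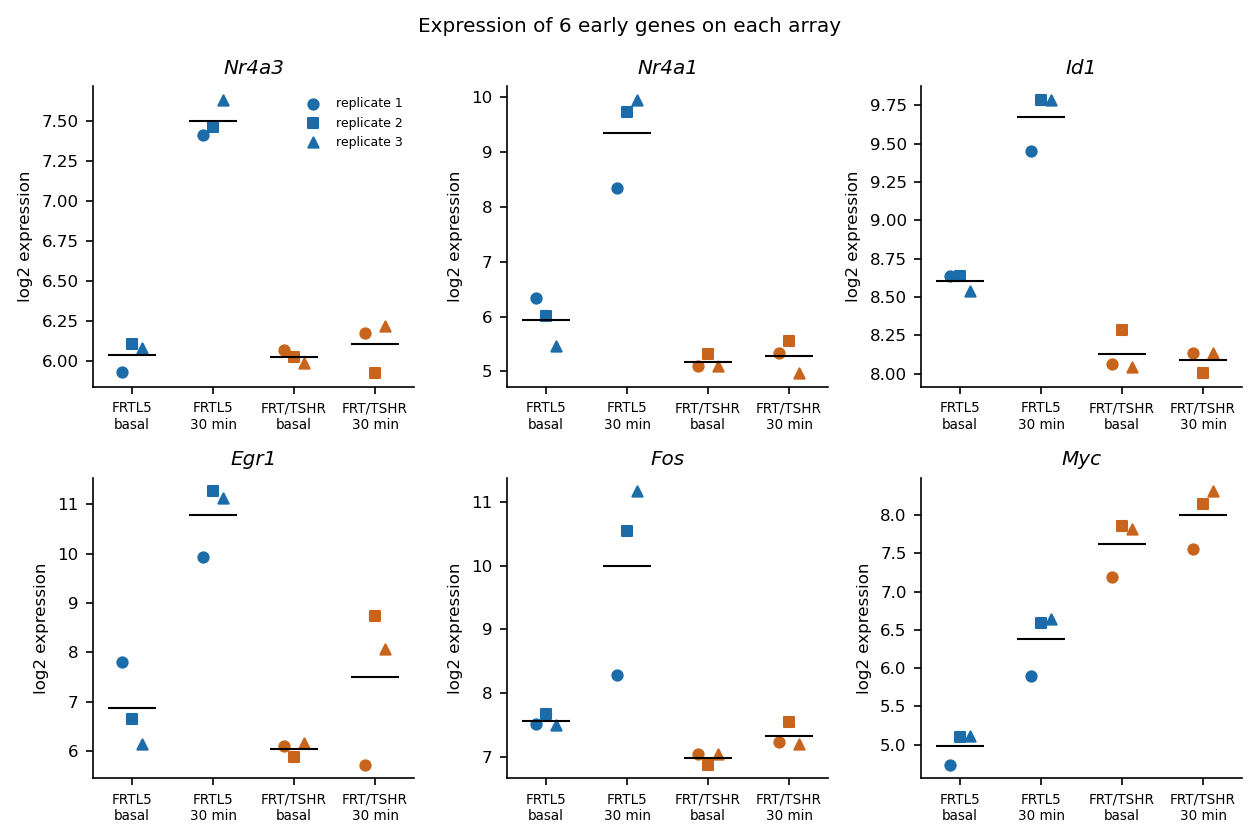
Log2 expression of 6 early genes (y axis, a separate scale in each panel) on each of the 12 arrays, by line and time (x axis); marker shape gives the replicate number and the bar is the mean of 3 arrays. Nr4a3, Nr4a1 and Id1 are high only on the FRTL5 arrays after TSH, Egr1 is also high on 2 of the 3 stimulated FRT/TSHR arrays, and Myc starts higher in FRT/TSHR, at 7.62 against 4.98.

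AP-1 dimers of FOS and JUN proteins are the best known early transcription factors. Of 8 measured subunits 6 had a line difference below 0 and 0 passed, with a median of -0.40 where 47.8% of all genes were below 0 and their median was 0.01. Fos stood at 7.51, 7.67 and 7.5 in basal FRTL5 and at 8.29, 10.55 and 11.17 after TSH. In FRT/TSHR it stood at 7.04, 6.87 and 7.04 and then at 7.23, 7.55 and 7.19. The stimulated FRTL5 arrays were all above the rest, but the array numbered 1 was far below the other 2. Fos rose by 2.45 ± 0.46 in FRTL5 (5.45-fold) and changed by 0.34 in FRT/TSHR (95% interval -0.65 to 1.32), and the line difference of -2.11 ± 0.66 did not pass (adjusted p = 1.00, limma). Without the FRTL5 30 min array numbered 1 it was -2.97 and passed (adjusted p = 8.12e-06, limma).

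Jun, the usual partner of Fos, was at 7.61, 7.71 and 7.90 in basal FRTL5 and 8.27, 10.16 and 9.61 after TSH. In FRT/TSHR it was at 6.76, 7.41 and 7.46 before and 6.66, 7.83 and 8.05 after. On arrays 2 and 3 of both lines Jun was higher after TSH, by more in FRTL5, and the line difference was -1.30 ± 0.57. Junb had -1.03 ± 0.61 and -1.44 ± 0.41 by its 2 probe sets, and the 95% interval of the second alone excluded 0 (-2.32 to -0.56). Fosl1 had -0.49 ± 0.60. Without the FRTL5 30 min array numbered 1, Jun was at -1.84 and Junb at -1.63 and -1.78, still without passing. Fosl1 started 2.87 higher in FRT/TSHR, where its values after TSH (6.24, 7.95 and 8.30) spread to both sides of basal (7.73, 7.22 and 7.12). Jund and Fosl2 had line differences of 0.25 ± 0.25 and 0.31 ± 0.29.

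Among the EGR and KLF zinc finger factors, 5 of 9 measured members were below 0, 0 passed, and the median was -0.04. Egr1, an early factor driven by serum response factor, had the largest rise of any gene in FRTL5 and was also the early gene with the largest value in FRT/TSHR. It was at 7.81, 6.65 and 6.13 in basal FRTL5 and at 9.94, 11.26 and 11.13 after TSH. In FRT/TSHR it was at 6.09, 5.88 and 6.16 before TSH and at 5.72, 8.74 and 8.06 after it. Arrays 2 and 3 of stimulated FRT/TSHR stood above every basal array of either line, and array 1 stood below all of them. The change was 3.91 ± 0.58 in FRTL5 and 1.47 ± 0.58 in FRT/TSHR, and the line difference of -2.45 ± 0.83 did not pass (adjusted p = 1.00, limma). A second Egr1 probe set had the lowest line difference of all, -3.31 ± 0.80 (adjusted p = 0.585, limma), with 0.58 in FRT/TSHR; without the FRTL5 30 min array numbered 1 it was -4.26 and passed (adjusted p = 0.000117, limma).

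Without the 6 arrays numbered 1, Egr1 passed both as a smaller effect in FRT/TSHR (-2.42 ± 0.37, adjusted p = 0.0140, limma) and as a rise within FRT/TSHR (2.38 ± 0.26, adjusted p = 0.00823). It was then 1 of 2 probe sets called in FRT/TSHR, the other having no single gene symbol. Egr2 was at 4.01, 3.92 and 4.14 and then 4.22, 6.60 and 6.48 in FRTL5, and at 3.90, 3.83 and 3.80 and then 3.93, 4.46 and 4.11 in FRT/TSHR. Its higher values were on arrays 2 and 3, and the line difference of -1.42 ± 0.58 did not pass. It was -2.19 and passed without the FRTL5 30 min array numbered 1 (adjusted p = 8.12e-06, limma). Egr3 and Egr4 had changes of at most 0.09 in either line and line differences of 0.02 ± 0.19 and -0.04 ± 0.23.

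Klf10, an early repressor that is also a target of TGF-beta, was not higher after TSH in FRT/TSHR by the mean of any of its 3 probe sets. The representative one was at 8.07, 7.85 and 8.05 and then 8.54, 8.72 and 8.46 in FRTL5, and at 7.26, 7.25 and 7.48 and then 6.95, 7.27 and 7.26 in FRT/TSHR. All stimulated FRTL5 arrays were above basal, and the FRT/TSHR arrays overlapped. The line difference was -0.76 ± 0.19 by this probe set and -0.90 ± 0.22 by the one with the smallest p (adjusted p = 0.585, limma), and -0.33 ± 0.16 by the remaining one.

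Other early regulators of transcription and growth numbered 16, of which 11 were below 0 and 0 passed, with a median of -0.32. Id1 encodes an inhibitor of basic helix-loop-helix factors. It was at 8.63, 8.64 and 8.54 in basal FRTL5, at 9.45, 9.79 and 9.79 after TSH, at 8.07, 8.28 and 8.04 in basal FRT/TSHR and at 8.13, 8.0 and 8.14 after TSH. Every stimulated FRTL5 array was above all others and the FRT/TSHR arrays overlapped. TSH raised Id1 by 1.07 ± 0.15 in FRTL5, the FRT/TSHR change was -0.04 (95% interval -0.35 to 0.27), and the line difference was -1.11 ± 0.21 (adjusted p = 0.165, limma; 0.0549 with the block). It was -1.22 and passed without the FRTL5 30 min array numbered 1 (adjusted p = 0.0164, limma). The other Id1 probe set rose by only 0.35 in FRTL5 and had a line difference of -0.41 (adjusted p = 0.74 with the block, limma). Without that array its line difference was -0.53 and did not pass either. The related Id3 had -0.88 ± 0.32, with higher values after TSH in FRTL5 (by 0.47) and lower ones in FRT/TSHR (a change of -0.41). Id2 had -0.14 ± 0.52.

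Ier3, a stress and survival gene, differed in sign between the lines. It was at 6.32, 6.51 and 6.57 and then 7.21, 7.97 and 7.84 in FRTL5, and at 9.07, 9.02 and 9.16 and then 8.67, 8.58 and 8.88 in FRT/TSHR. Every stimulated FRTL5 array was above basal and every stimulated FRT/TSHR array was below basal. The changes were 1.21 ± 0.24 and -0.37 ± 0.24, neither of which passed, and with the replicate number as a block the FRTL5 rise passed (adjusted p = 0.000871, limma). The line difference was -1.58 ± 0.35 (adjusted p = 0.366, limma; 0.0125 with the block), and -1.81 without the FRTL5 30 min array numbered 1 (adjusted p = 0.0259). Even after TSH, FRTL5 stayed below FRT/TSHR, by 1.03. These values are of the representative probe set. The other Ier3 probe set rose by 0.71 in FRTL5, which did not pass with the block (adjusted p = 0.0839, limma). Its line difference of -0.92 did not pass with the block either (adjusted p = 0.259, limma). Without the FRTL5 30 min array numbered 1 it was -1.27 and passed (adjusted p = 0.0262, limma).

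Myc, the growth-promoting factor, was at 4.74, 5.10 and 5.11 and then 5.90, 6.59 and 6.64 in FRTL5. In FRT/TSHR it was at 7.19, 7.86 and 7.82 and then 7.56, 8.15 and 8.31. Between arrays of the same number Myc was higher after TSH in both lines, by 1.16 to 1.53 in FRTL5 and by 0.29 to 0.49 in FRT/TSHR. The line difference was -1.01 ± 0.34, and -1.30 ± 0.32 by the other probe set (adjusted p = 0.605, limma). Sgk1, a kinase of ion transport and survival, had 4.44, 4.38 and 4.46 and then 4.79, 5.00 and 5.20 in FRTL5 against 7.19, 6.71 and 6.62 and then 7.18, 6.22 and 6.26 in FRT/TSHR, a line difference of -0.86 ± 0.30 that did not pass.

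Products that act after transcription or outside the cell were mixed. Both measured mRNA decay factors, Zfp36 (tristetraprolin) and Zfp36l1, had line differences below 0, of -0.68 ± 0.37 and -0.32 ± 0.40. Without the FRTL5 30 min array numbered 1 these were -1.14 (adjusted p = 0.0199, limma), which passed, and -0.70, which did not. A second Zfp36 probe set gave -1.25 ± 0.42 over all arrays and -1.74 without that array (adjusted p = 0.00204, limma). Of 15 early secreted products 5 were below 0 and 0 passed, and their median was 0.04. Ccn1 (CYR61), a matricellular protein, was at 5.64, 5.56 and 5.62 and then 6.99, 8.82 and 8.77 in FRTL5, and at 6.39, 5.87 and 6.16 and then 5.61, 6.33 and 7.20 in FRT/TSHR. The FRTL5 arrays separated fully by TSH and the FRT/TSHR arrays did not. Its line difference was -2.35 ± 0.63 (adjusted p = 0.886, limma), and without the FRTL5 30 min array numbered 1 it was -2.95 (adjusted p = 0.0164). Ptgs2 (COX-2) lay on the other side with 0.38 ± 0.14, and its other probe set gave -0.13 ± 0.18.

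MAP kinase phosphatases and feedback inhibitors limit the signal that induces them. Of 6 measured, 4 were below 0 and 0 passed, with medians of 0.65 for the FRTL5 change and 0.13 for the FRT/TSHR change. Dusp1 was at 7.71, 8.13 and 8.31 and then 9.57, 10.37 and 10.45 in FRTL5, and at 8.65, 8.61 and 8.59 and then 8.64, 9.16 and 9.32 in FRT/TSHR. Arrays 2 and 3 of FRT/TSHR were above basal and array 1 was not. The rise was 4.24-fold in FRTL5 and the FRT/TSHR change was 1.34-fold, and the line difference of -1.66 ± 0.35 did not pass (adjusted p = 0.295, limma) and passed with the block (0.0161) or without the FRTL5 30 min array numbered 1 (-1.94, adjusted p = 0.00875). A second Dusp1 probe set gave -2.08 ± 0.44 (0.0203 with the block), and the remaining one -1.64 ± 0.48.

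Dusp5 and Dusp6, which act on ERK, started higher in FRT/TSHR, by 2.04 and 1.04. Dusp5 was at 6.85, 6.30 and 7.01 and then 7.19, 8.61 and 8.71 in FRTL5, against 8.80, 8.82 and 8.67 and then 8.66, 9.58 and 9.69 in FRT/TSHR. In both lines arrays 2 and 3 were above basal, and the line difference of -0.90 ± 0.47 had an interval that reached 0.10. Without the FRTL5 30 min array numbered 1 it was -1.39, which did not pass. Dusp6 had -0.82 ± 0.41, Spry1 -0.35 ± 0.27, Errfi1 0.02 ± 0.22 and Dusp4 0.22 ± 0.17.

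**Figure D3:**
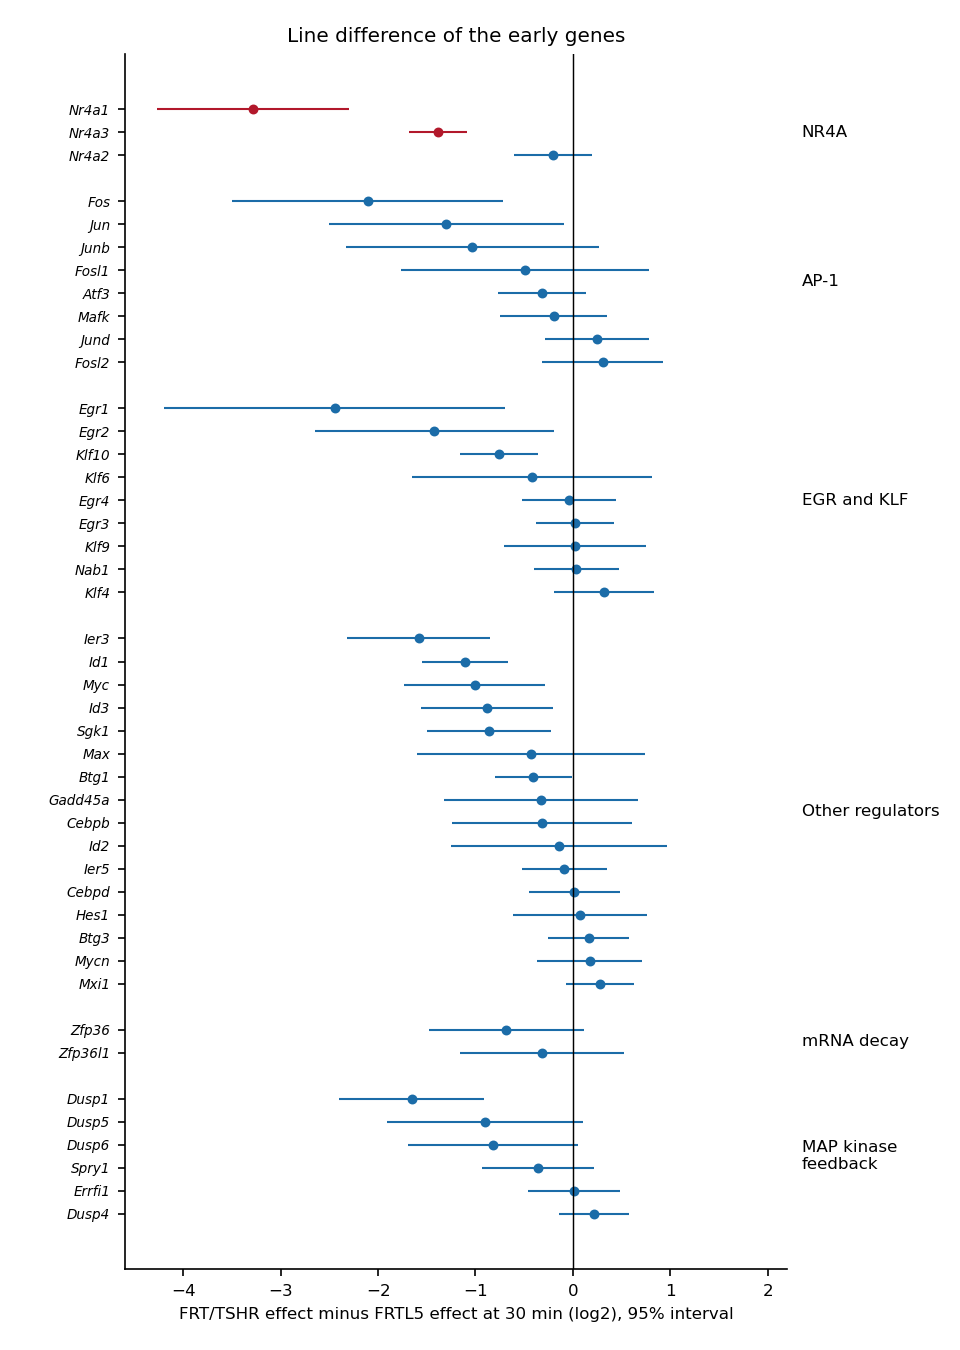
Line difference at 30 min (x axis, log2, FRT/TSHR change minus FRTL5 change) for the measured members of 6 early gene lists, each with its 95% interval; red marks genes that passed. The intervals of Nr4a1 and Nr4a3 lie far left of 0, several others such as Ier3, Id1, Fos, Egr1 and Dusp1 also exclude 0 without passing, and members such as Egr3, Egr4 and Errfi1 lie on 0.

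Over all 71 measured early genes 40 had a line difference below 0 (56.3%, against 47.8% of all genes), and 2 passed. The median was -0.14. In 15 of the 71 (21.1%) the 3 number-matched changes of FRTL5 all lay above the 3 of FRT/TSHR, against 4.86% of all probe sets. The opposite order was found in 4 of the 71 (5.63%), against 9.35% of all probe sets. The median changes of the 71 genes were 0.15 in FRTL5 and 0.12 in FRT/TSHR, so the large differences came from a minority of the list.

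Starting level did not follow one rule among the 18 early genes with a line difference below -0.5. In basal cells 5 of them were higher in FRT/TSHR (Dusp5, Dusp6, Ier3, Myc and Sgk1), 3 were lower (Id1, Id3 and Klf10) and 10 did not pass, among them Nr4a1, Nr4a3, Fos and Egr1. Of all probe sets 13.3% were higher and 12.2% lower in basal FRT/TSHR. After TSH 11 of the 18 were lower in FRT/TSHR, 4 were higher (Dusp5, Ier3, Myc and Sgk1) and 3 did not pass, where 11.4% of all probe sets were lower and 11.3% higher. Both levels enter the line difference that chose the 18, so these counts are a description. For Nr4a1, Nr4a3, Fos and Egr1 every stimulated FRTL5 array was above every FRT/TSHR array, and for Egr2 and Ccn1 2 of the 3 were. For Myc, Ier3, Sgk1 and Dusp5 the FRTL5 mean after TSH was still below the basal FRT/TSHR mean.

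Within FRTL5 TSH changed 21 probe sets for 12 named genes (0.24% of probe sets, all higher), and within FRT/TSHR 0 passed (0%). With the replicate number as a block 40 passed in FRTL5, 36 of them higher. At an unadjusted p under 0.05, FRT/TSHR had 208 probe sets (2.38%). Because these 21 were chosen by the FRTL5 change, their line differences are given as a description. Their median change was 2.08 in FRTL5 and 0.31 in FRT/TSHR, where 19 of 21 were above 0 and the range was -0.09 to 1.47. Only 3 of the 21 passed the line difference, so for the other 18 a response in FRTL5 with none called in FRT/TSHR is not by itself a tested difference.

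The changes were also read by replicate number. Each number stands for 1 basal and 1 stimulated array in a line, and probe sets are not replicates, so an effect of the number was not tested. Between arrays of the same number, the median change of these 21 probe sets in FRTL5 was 1.35 for number 1, 2.31 for number 2 and 2.43 for number 3. In FRT/TSHR the medians were 0.01, 0.42 and 0.49. Number 1 gave the smallest FRTL5 change for 19 of 21 probe sets and the smallest FRT/TSHR change for 11 of 21. The share above 0 in FRT/TSHR was 11 of 21 for number 1, 16 for number 2 and 19 for number 3. In each line number 1 had the lowest median. Within each number the FRTL5 median exceeded that of FRT/TSHR. The choice of these probe sets by their FRTL5 change on the same arrays favours that order, so it is a description.

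**Figure D4:**
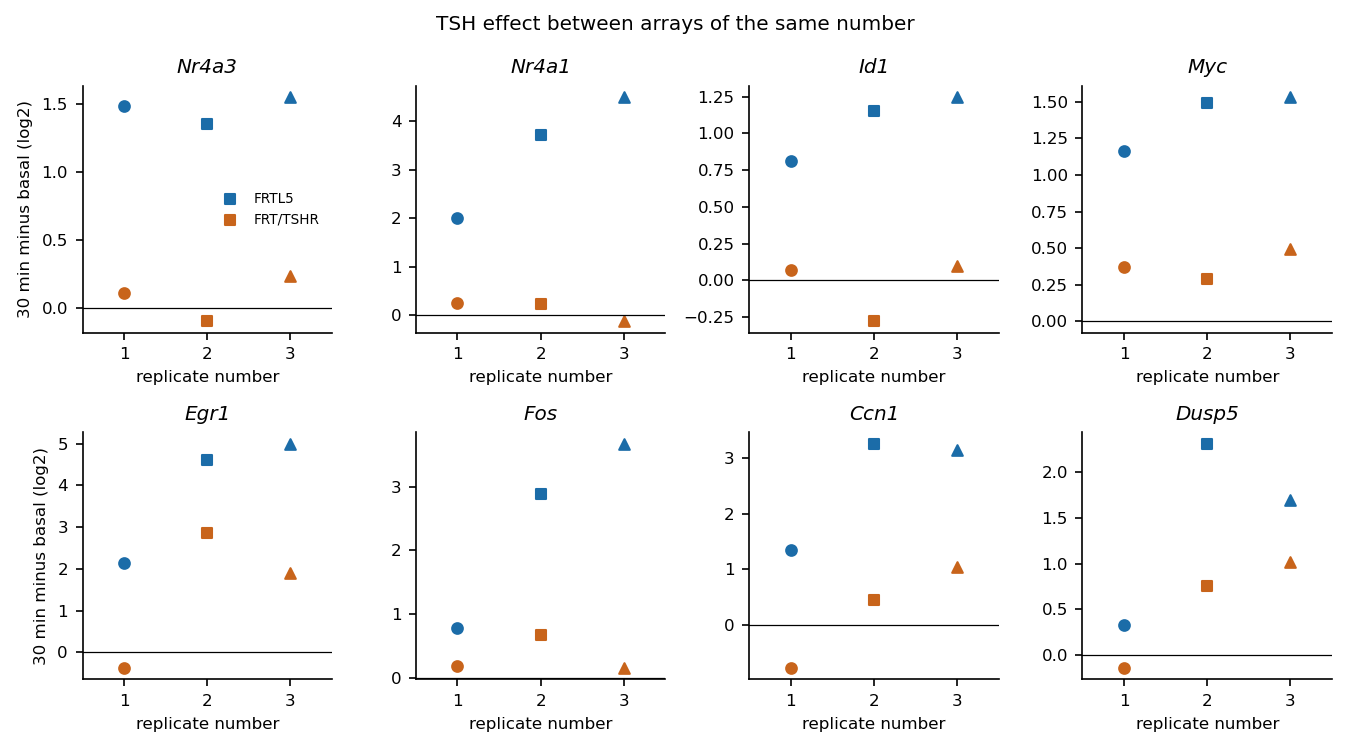
Change from basal to 30 min of TSH between arrays of the same replicate number (y axis, log2, a separate scale in each panel) for 8 early genes, with the replicate number on the x axis, FRTL5 in blue and FRT/TSHR in orange. FRTL5 lies above FRT/TSHR at every number in all 8 panels; Egr1, Ccn1 and Dusp5 of FRT/TSHR are above 0 at numbers 2 and 3 and below 0 at number 1.

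The number of calls rose in the settings that left out the FRTL5 30 min array numbered 1. Leaving out only the basal FRTL5 array numbered 1 gave 3 calls, and leaving out only the basal or only the 30 min FRT/TSHR array numbered 1 gave 2. Without the FRTL5 30 min array numbered 1, 24 probe sets passed the line difference, all with the smaller effect in FRT/TSHR. They named 12 genes: Acta1, Ccn1, Dusp1, Egr1, Egr2, Fos, Id1, Ier3, Nr4a1, Nr4a3, Tpm1 and Zfp36. Without the arrays numbered 1 of every group, 25 passed, for 13 genes, among which Jun, Klf10 and Sgk1 joined while Id1 and Zfp36 were not called. Nr4a1 was then -4.05 (adjusted p = 0.000171, limma) and Nr4a3 -1.39 (adjusted p = 0.00583), with FRT/TSHR changes of 0.06 and 0.07. Over the 22 alternatives the adjusted p of the representative probe set ranged from 9.19e-05 to 0.0118 for Nr4a3, 6.36e-06 to 0.0823 for Nr4a1, 8.12e-06 to 1.00 for Fos, 0.0140 to 1.00 for Egr1, 0.0164 to 0.711 for Id1 and 0.0101 to 1.00 for Ier3. For other probe sets it ranged from 0.000117 to 1.00 for Egr1, from 0.00223 to 1.00 for Dusp1 and, over 21 alternatives, from 0.0282 to 0.973 for Nr4a2. The actin difference named above sets apart only the FRTL5 arrays numbered 1; its part in these values was not tested. Acta1 (skeletal alpha-actin) and Tpm1, cytoskeletal genes and targets of serum response factor, were picked out here with their values known, and Acta1 had -1.62 ± 0.44 over all arrays (adjusted p = 0.901, limma) and -2.20 without the FRTL5 30 min array numbered 1 (adjusted p = 6.7e-06). The Tpm1 probe set called there had -1.73 (adjusted p = 0.00203, limma). The other 4 Tpm1 probe sets, the representative one among them, lay between -0.11 and 0.07 and did not pass.

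The usual CREB targets outside the early families were then examined. Of 12 measured, 4 had a line difference below 0 and 0 passed, with a median of 0.08. Crem, whose inducible repressor form is made from an internal cAMP-driven promoter, had -0.19 ± 0.25 by its representative probe set. By another it was at 4.65, 4.51 and 4.67 and then 5.05, 4.93 and 4.96 in FRTL5, against 4.43, 4.49 and 4.28 and then 4.61, 4.57 and 4.50 in FRT/TSHR. That probe set was higher after TSH on all FRTL5 arrays and on all FRT/TSHR arrays, with a line difference of -0.21 ± 0.15. Pde4b, a cAMP phosphodiesterase, had -0.17 ± 0.19 and Pde4d 0.22 ± 0.16.

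Transcripts of the signalling machinery showed no called line difference. Among the receptor, G proteins and adenylyl cyclases 4 of 16 were below 0 (median 0.10). Among protein kinase A, EPAC, CREB and phosphodiesterase genes 7 of 22 were below 0 (median 0.05), and among MAP kinase cascade genes 3 of 10 (median 0.12). In each of these 3 lists 0 passed. Tshr itself changed by -0.08 in FRTL5 and 0.05 in FRT/TSHR, a line difference of 0.12 ± 0.22. Among clock genes, Nr1d1 had -0.37 ± 0.20, with a value of 0.61 in FRTL5 and 0.24 in FRT/TSHR.

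No line difference was called for thyroid differentiation genes at 30 min. Of 11 measured, 3 were below 0 and 0 passed, and the median was 0.08. Thyroglobulin (Tg), the hormone precursor, was at 11.21 in basal FRTL5 and 4.17 in basal FRT/TSHR, and its TSH changes of -0.20 and 0.04 gave a line difference of 0.25 ± 0.52. The iodide transporter Slc5a5 had 0.06 ± 0.26 and the transcription factors Pax8, Nkx2-1 and Foxe1 had 0.09 ± 0.32, 0.08 ± 0.70 and -0.08 ± 0.48. For Slc5a5 the 17 h line difference from the same basal arrays was -2.58 ± 0.26 and passed (adjusted p = 0.000298, limma), whereas its 95% interval at 30 min was -0.49 to 0.61.

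In the direction of a higher effect in FRT/TSHR nothing passed. The 10 named genes with the smallest p on that side had line differences of 0.39 to 0.62, and 5 of these probe sets lay below the median level of all values, 5.52. Cyp2c23, an arachidonic acid epoxygenase, had the smallest p: it was at 5.03, 4.99 and 4.90 and then 4.64, 4.51 and 4.53 in FRTL5, and at 4.65, 4.64 and 4.69 and then 4.93, 4.87 and 4.79 in FRT/TSHR. The arrays separated by TSH in both lines and in opposite directions, and the line difference was 0.62 ± 0.12 (adjusted p = 0.275, limma). The other Cyp2c23 probe sets, at -0.13 ± 0.22 and -0.29 ± 0.50, did not share it. The rest were Muc3, Nr5a2, Or13c7e, Pcdhga11, Bcl2, Apba1, Cpq, Hspb2 and Haao. By the probe sets picked, all 10 were lower after TSH in FRTL5 by mean, and 9 were higher in FRT/TSHR. They were picked on the positive side of the line difference, so these signs are a description. The representative probe sets of Bcl2, Haao and Muc3 were other ones, with line differences of -0.28, 0.02 and 0.27. In FRTL5 the first 2 of these changed by 0.36 and 0.03, so they were not lower after TSH. Cited2, a CREB-binding protein partner, had the highest value of all at 0.98 ± 0.47, but its other probe sets gave 0.13 ± 0.82 and 0.33 ± 0.82.

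Proliferation genes leaned below 0 over all arrays and lay nearer 0 without the arrays numbered 1. Mitosis genes were below 0 in 11 of 13 with a median of -0.36, and DNA replication genes in 11 of 14 with a median of -0.20, and 0 passed in either list. In FRT/TSHR 0 of 13 and 0 of 14 were above 0 after TSH by mean (medians -0.41 and -0.26), against FRTL5 medians of -0.05 and -0.03. Pcna, the replication clamp, was at 10.29, 9.84 and 10.26 and then 9.03, 9.67 and 9.52 in FRT/TSHR, so that the largest step was on number 1. Hmmr, a spindle-associated protein, was likewise at 7.14, 6.12 and 6.09 and then 5.91, 6.07 and 6.14. Without the arrays numbered 1 the line difference medians were -0.07 for mitosis and 0.03 for DNA replication.

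The remaining lists had 0 genes passing each. Cholesterol synthesis genes were below 0 in 11 of 16 (median -0.17), and heat shock genes in 7 of 12 (median -0.14), with Cryab at -0.74 ± 0.43 and Dnaja1 at 0.56 ± 0.22. Crip2, a LIM-domain protein, was the 1 gene outside these lists among the 10 lowest p on the negative side. It was at 11.53, 11.63 and 11.38 and then 11.77, 11.63 and 11.64 in FRTL5, and at 11.14, 11.26 and 11.24 and then 10.74, 10.63 and 10.89 in FRT/TSHR. The stimulated FRT/TSHR arrays were all below basal, and the line difference was -0.62 ± 0.16 (adjusted p = 0.605, limma).

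Markers of other cell types were checked beside these results. The mean levels of 4 C cell markers were 4.32 to 4.47 over the 12 arrays, of 4 endothelial markers 5.05 to 5.31 and of 6 fibroblast markers 4.96 to 5.24. Leukocyte markers were at 6.39 to 6.57 in FRTL5 and basal FRT/TSHR and at 6.51 to 6.94 in stimulated FRT/TSHR. None of these genes passed the line difference. The list medians were 0.26 for endothelial, 0.16 for leukocyte, -0.03 for C cell, -0.06 for fibroblast and -0.04 for epithelial genes, and their part in the differences above was not tested.

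**Figure D5:**
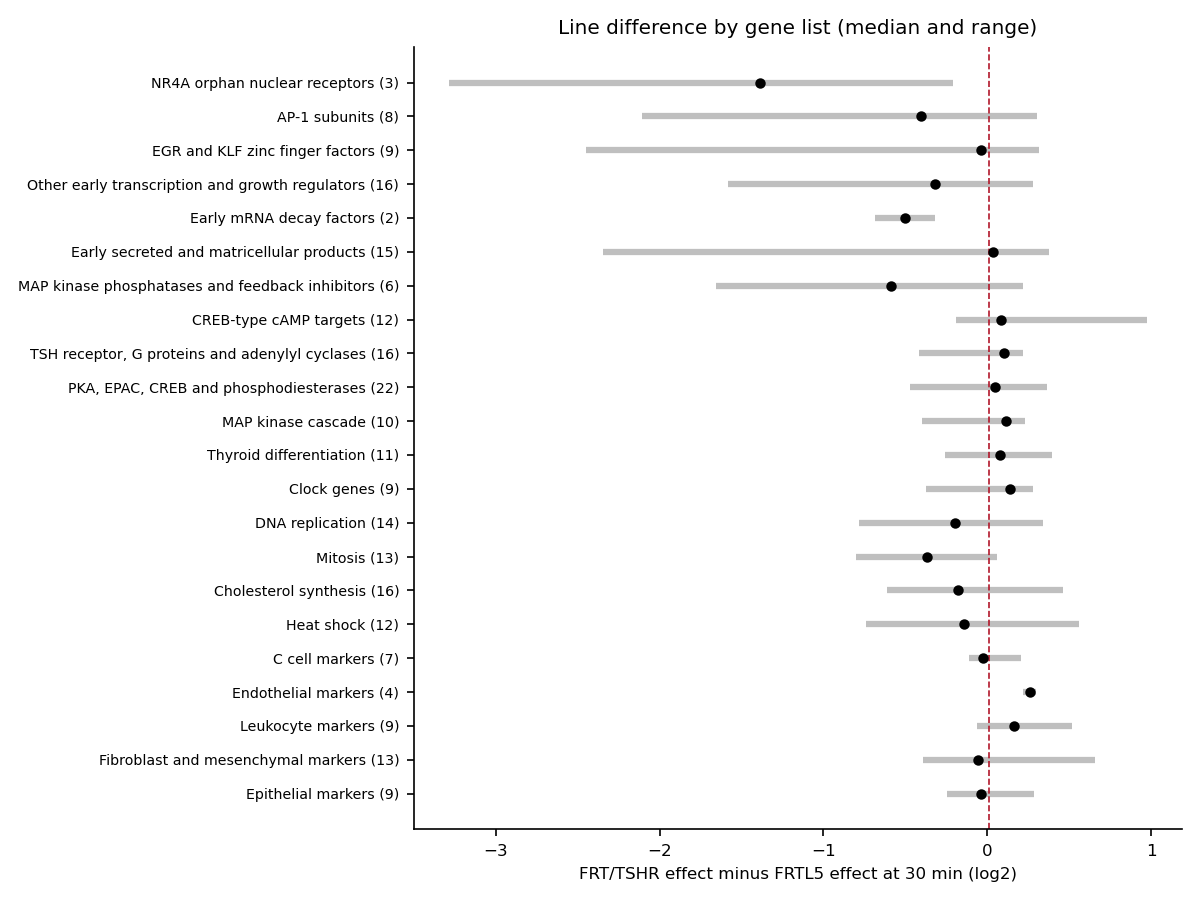
Line difference at 30 min (x axis, log2) by gene list, with the number of measured genes in brackets; the dot is the median, the bar the range from lowest to highest gene, and the dashed line the median of all 4736 genes. The lowest gene of the early lists is Nr4a1 at -3.29, and their mRNA decay list reaches -0.68. The CREB-type target list, also an early list, runs from -0.19 to 0.98. Genes of the lists that are not early run from -0.80 in the mitosis list to 0.66 in the fibroblast and mesenchymal list.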

How the data were processed

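Biotin-labelled cRNA made from 10 µg of RNA was read on Affymetrix arrays. The deposited table holds log2 expression values per probe set that the authors made with RMA, per the submitters' processing notes; its version was not given in the sources used here. RMA compresses low signals, so differences of dim probe sets can be understated. Detection above background was not analysed here. Of 8799 probe sets, 59 controls were dropped and 8740 tested with no filter.

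A fit of 6 group means to the 18 arrays used limma 3.58.1 (lmFit, eBayes; 12 residual and 3.597 prior df) in R 4.3.3, with two-sided tests and Benjamini-Hochberg adjustment over the 8740 at a threshold of 0.05. Errors are standard errors (SE) unless marked SD. The series text calls the replicates biological and gives no further source, so p-values measure the spread between these samples. The code was tested on simulated data.

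The platform annotation gave 1 symbol to 7006 probe sets, and 6985 matched the GRCr8 reference table. For each of 4736 genes the probe set of highest mean level stands for the gene. Genes were named by rule: in each direction 10 by largest passing difference and then smallest p; Nr4a1, Nr4a3, Fos, Egr1, Tshr, Tg, Slc5a5, Pax8, Nkx2-1, Foxe1 and Crem; the measured members of the early gene lists; and up to 4 members by p of each other list. The comparison, the lists and their members were chosen with earlier results of these data known.

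Replicate numbers come from the titles. Deviations from group means correlated between same-numbered basal and 30 min arrays within a line (0.399 to 0.798 in FRTL5, 0.158 to 0.497 in FRT/TSHR) and not throughout between lines (-0.116 to 0.351), so the block of line and number is given beside the calls and counts it changes among the results described. Alternatives were this block, a block shared by the lines, the 12 arrays alone, array centring, repeated quantile normalization, a filter on dim probe sets, trend and robust eBayes, array weights, arrays left out and other thresholds.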

Additional observations from a re-analysis of the deposited data

Results flagged for a closer look

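The TSH effect differed between the lines by the test of the difference itself for 3 probe sets, and these are the results to look at again. They were Nr4a3 (-1.38 ± 0.14, adjusted p = 0.000298, limma) and both probe sets of Nr4a1 (-3.29 ± 0.46, adjusted p = 0.0128, and -3.19 ± 0.51, adjusted p = 0.0335). For all 3, each of the 3 number-matched changes in FRTL5 lay above each of those in FRT/TSHR. The same order was found in 425 of 8740 probe sets (4.86%). These 3 were picked by the line difference of the same arrays, so their order is a description. No group had the 4 arrays needed to test for a single outlying array.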

How the results depend on the processing

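The line difference was called for 3 probe sets. With the replicate number as a block within each line 8 were called, with array weights 12, without all arrays numbered 1 25, without the FRTL5 arrays numbered 1 25, in a fit of the 12 arrays alone 1, and at an adjusted p under 0.01 1. Leaving out 1 array gave 1 to 24, with 24 without FRTL5 30 min array 1 and 1 without FRTL5 basal array 3, FRTL5 30 min array 2, FRT/TSHR basal array 2 or FRT/TSHR 30 min array 3. The FRTL5 effect had 21 calls, and 40 with the block, 48 with array weights, 52 and 45 without the arrays numbered 1 of all groups and of FRTL5, and 12 to 44 with 1 array left out (13 without FRTL5 basal array 2, 44 without 30 min array 1, 12 without 30 min array 2). The FRT/TSHR effect had 0 calls, and 2 without the arrays numbered 1. Some genes that were not called changed sign when 1 array was left out, with ranges of -0.095 to 0.65 for Tg, -0.053 to 0.21 for Slc5a5, -0.050 to 0.26 for Pax8, -0.42 to 0.65 for Nkx2-1, -0.36 to 0.20 for Foxe1 and -0.32 to 0.050 for Crem. The cause of these changes was not tested. With 3 arrays a group the median SE of a line difference was 0.21. Id1 had an SE of that size, and its line difference of -1.11 did not pass (adjusted p = 0.165, limma). Differences well above the median SE could therefore be missed, and a gene without a call is not shown to respond equally in both lines. Signal over background was not measured, and line, dose and medium cannot be told apart.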
